A study of Mus musculus with 30 samples.

Results

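Immediate early genes are transcribed within minutes of a signal by factors already present in the cell, before new protein has been made. Growth factors, cytokines, mechanical strain and enzymatic dissociation of tissue are known to reach them through MAP kinases, serum response factor, CREB and NF-κB, and most of their mRNAs are short-lived. Many of the products are transcription factors that switch on later genes, and others are inhibitors that end the response. The genes described here are 38 immediate early and early response genes, taken by symbol from a fixed list out of 32316 mouse gene symbols. All 38 were found, each as 1 gene, and all 38 passed the filter on low counts (at least 6 counts in at least 3 libraries), as 17505 genes did. By role they comprise 9 AP-1 and small Maf factors (Fos, Fosb, Fosl1, Fosl2, Jun, Junb, Jund, Atf3 and Maff), 3 EGR factors (Egr1, Egr2 and Egr3) and 5 other early regulators of transcription or mRNA (Ier2, Ier5, Btg2, Myc and Csrnp1). A further 5 act in the feedback of cytokine and NF-κB signalling (Ier3, Zfp36, Socs3, Nfkbiz and Nfkbia), 3 are NR4A orphan nuclear receptors (Nr4a1, Nr4a2 and Nr4a3) and 4 are MAP kinase phosphatases (Dusp1, Dusp2, Dusp5 and Dusp6). The remaining members are 4 KLF factors (Klf2, Klf4, Klf6 and Klf10) and 5 kinase, stress and GTPase genes (Rhob, Gadd45b, Gadd45g, Sik1 and Trib1).

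Stromal cells of the gut lamina propria, the connective tissue under the epithelium, were sorted from untreated C57BL6/Nrj mice of 8 to 10 weeks and subjected to bulk RNA-seq. Each of 10 populations had 3 libraries, 30 in all, and the labels give the tissue of 3 mice as their source. The sorts came from 3 separate experiments in which small intestine and colon were taken from the same animals, so populations share mice and experiments, and which libraries share a mouse is not given. All sorts left out dead, lineage+, CD31+, BP3+, EpCAM+ and NCAM hi cells. From the small intestine came pericytes (PDGFRα-ESAM-1+PDPN-), smooth muscle cells (SMC, PDGFRα-ESAM-1+PDPN+) and 3 fibroblast (FB) populations without ESAM-1, namely CD34+ FB (PDGFRα intCD34+), Fgfr2+ FB (PDGFRα intCD34-) and PDGFRα hi FB (PDGFRα hiCD34-). From the colon came pericytes with the same gate and 4 FB populations without ESAM-1, namely CD81+ FB (PDPN intCD34+CD90-), CD90+ FB (CD34+PDPN hiCD90+), Fgfr2+ FB (PDPN hiCD34+CD90-) and PDGFRα hi FB (PDPN+CD34-). Fgfr2+ FB were therefore sorted as CD34- cells in the small intestine and as CD34+ cells in the colon. Cell isolation also differed between the tissues. Epithelium was removed from both with EDTA at 37 °C, but a reducing agent was added for the colon, and the enzyme digestion at 37 °C was shaken for the small intestine and stirred with a magnet for the large intestine. Tissue and isolation cannot be told apart in any comparison of the small intestine with the colon, nor can the gate in the FB subsets. The digestion lasted up to 30 min with either collagenase P or Liberase TM together with DNase I, and which enzyme was used for which sort is not given.

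The deposited estimated counts, which are reads assigned to transcripts by kallisto, were summed to genes. They came to between 2245052 and 19096945 per library, with a median of 9601683. Within populations the sums ranged from 6185421 to 9075187 in small intestinal pericytes, 8866828 to 13507159 in SMC, 9432531 to 11930055 in CD34+ FB, 2245052 to 15098412 in Fgfr2+ FB and 7327358 to 18148945 in PDGFRα hi FB. In the colon they ranged from 9225411 to 13866610 in pericytes, 13102446 to 18710840 in CD81+ FB, 14456220 to 19096945 in CD90+ FB, 8740291 to 9785938 in Fgfr2+ FB and 6865683 to 7248567 in PDGFRα hi FB. Levels are given as CPM, estimated counts scaled to 1 common library total, after TMM normalization, which corrects each library's total for genes that take an unusual share of it. Defining markers of the populations were examined next. The pericyte gene Rgs5 averaged 31800 CPM in pericytes of the small intestine and 33500 CPM in those of the colon, against 5050 CPM in SMC and, among FB of the small intestine, 3800 CPM in CD34+ and 1710 CPM in Fgfr2+ FB. The smooth muscle myosin Myh11 averaged 11500 CPM in SMC, 7000 CPM in colonic pericytes and 1580 CPM in small intestinal pericytes. Pdgfra was highest in the PDGFRα hi FB of each tissue, at 6520 and 2440 CPM, Fgfr2 was at 1650 and 473 CPM in the Fgfr2+ FB of small intestine and colon, and the complement gene C3 averaged 9000 CPM in CD34+ FB and 10600 CPM in CD81+ FB. By Pearson correlation over the tested genes (log2 CPM), 10 of the 30 libraries were closest to a library of another population. They were all 3 small intestinal Fgfr2+ FB libraries, closest to small intestinal CD34+ FB (r = 0.8487, 0.8761 and 0.8725), all 3 colonic Fgfr2+ FB libraries, all 3 CD81+ FB libraries and small intestinal pericyte replicate 3, closest to a colonic pericyte library. Colonic Fgfr2+ FB replicate 1 was closest to CD90+ FB (r = 0.8838), and replicates 2 and 3 to small intestinal CD34+ FB (r = 0.9209 and 0.9178), where their mean r within the group was 0.8932 and 0.8879.

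Single libraries stood apart before any member was compared. Small intestinal Fgfr2+ FB replicate 3 was the smallest library, with 2245052 counts against 10286761 and 15098412 in its group. SMC replicate 3 had 17.4% of its counts on mitochondrial genes, while the other 29 libraries had 1.37% to 5.87%. In small intestinal PDGFRα hi FB replicate 3 the most abundant transcript held 14.8% of TPM, the lowest share of all libraries, where the other 2 libraries of the group had 49.2% and 51.1%. Small intestinal pericyte replicate 1 had 218 CPM on 15 immune cell markers, of which the B cell gene Cd79a made up 91.7%. Every count of called members is given again without these 4 libraries. In bulk libraries, fewer cells that express a gene and less RNA of it per cell cannot be told apart.

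The summed level of the members was high in pericytes of both tissues and in colonic CD81+ FB. It was low in SMC and in the Fgfr2+ FB and PDGFRα hi FB of the small intestine. Summed over the 38 genes, their level was 14900 ± 5008 CPM (mean ± SD, n = 3) in small intestinal pericytes, 15750 ± 2628 CPM in colonic pericytes and 14230 ± 3356 CPM in CD81+ FB. Colonic Fgfr2+ FB followed with 9136 ± 3146 CPM, small intestinal CD34+ FB with 5700 ± 1157 CPM and CD90+ FB with 4927 ± 1134 CPM. The lowest sums were 2878 ± 642 CPM in colonic PDGFRα hi FB, 2116 ± 432 CPM in small intestinal PDGFRα hi FB, 1941 ± 286 CPM in SMC and 1651 ± 279 CPM in small intestinal Fgfr2+ FB. The 3 highest populations overlapped, with libraries between 11420 and 20640 CPM, and colonic Fgfr2+ FB, at 5504 to 11000 CPM, lay below them. Colonic pericytes had the highest mean of 18 members, small intestinal pericytes of 10, CD81+ FB of 9 and colonic Fgfr2+ FB of 1, Socs3. Small intestinal Fgfr2+ FB had the lowest mean of 18 members, SMC of 8, small intestinal PDGFRα hi FB of 8 and colonic PDGFRα hi FB of 2, while Egr3 and Dusp2 had no count in 3 and 5 populations, which tied. Egr1 alone made up 12% of the sum in SMC and 40.5% in small intestinal CD34+ FB, and without it the sum was 11080 CPM in small intestinal pericytes and 1259 CPM in small intestinal Fgfr2+ FB.

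**Figure D1:**
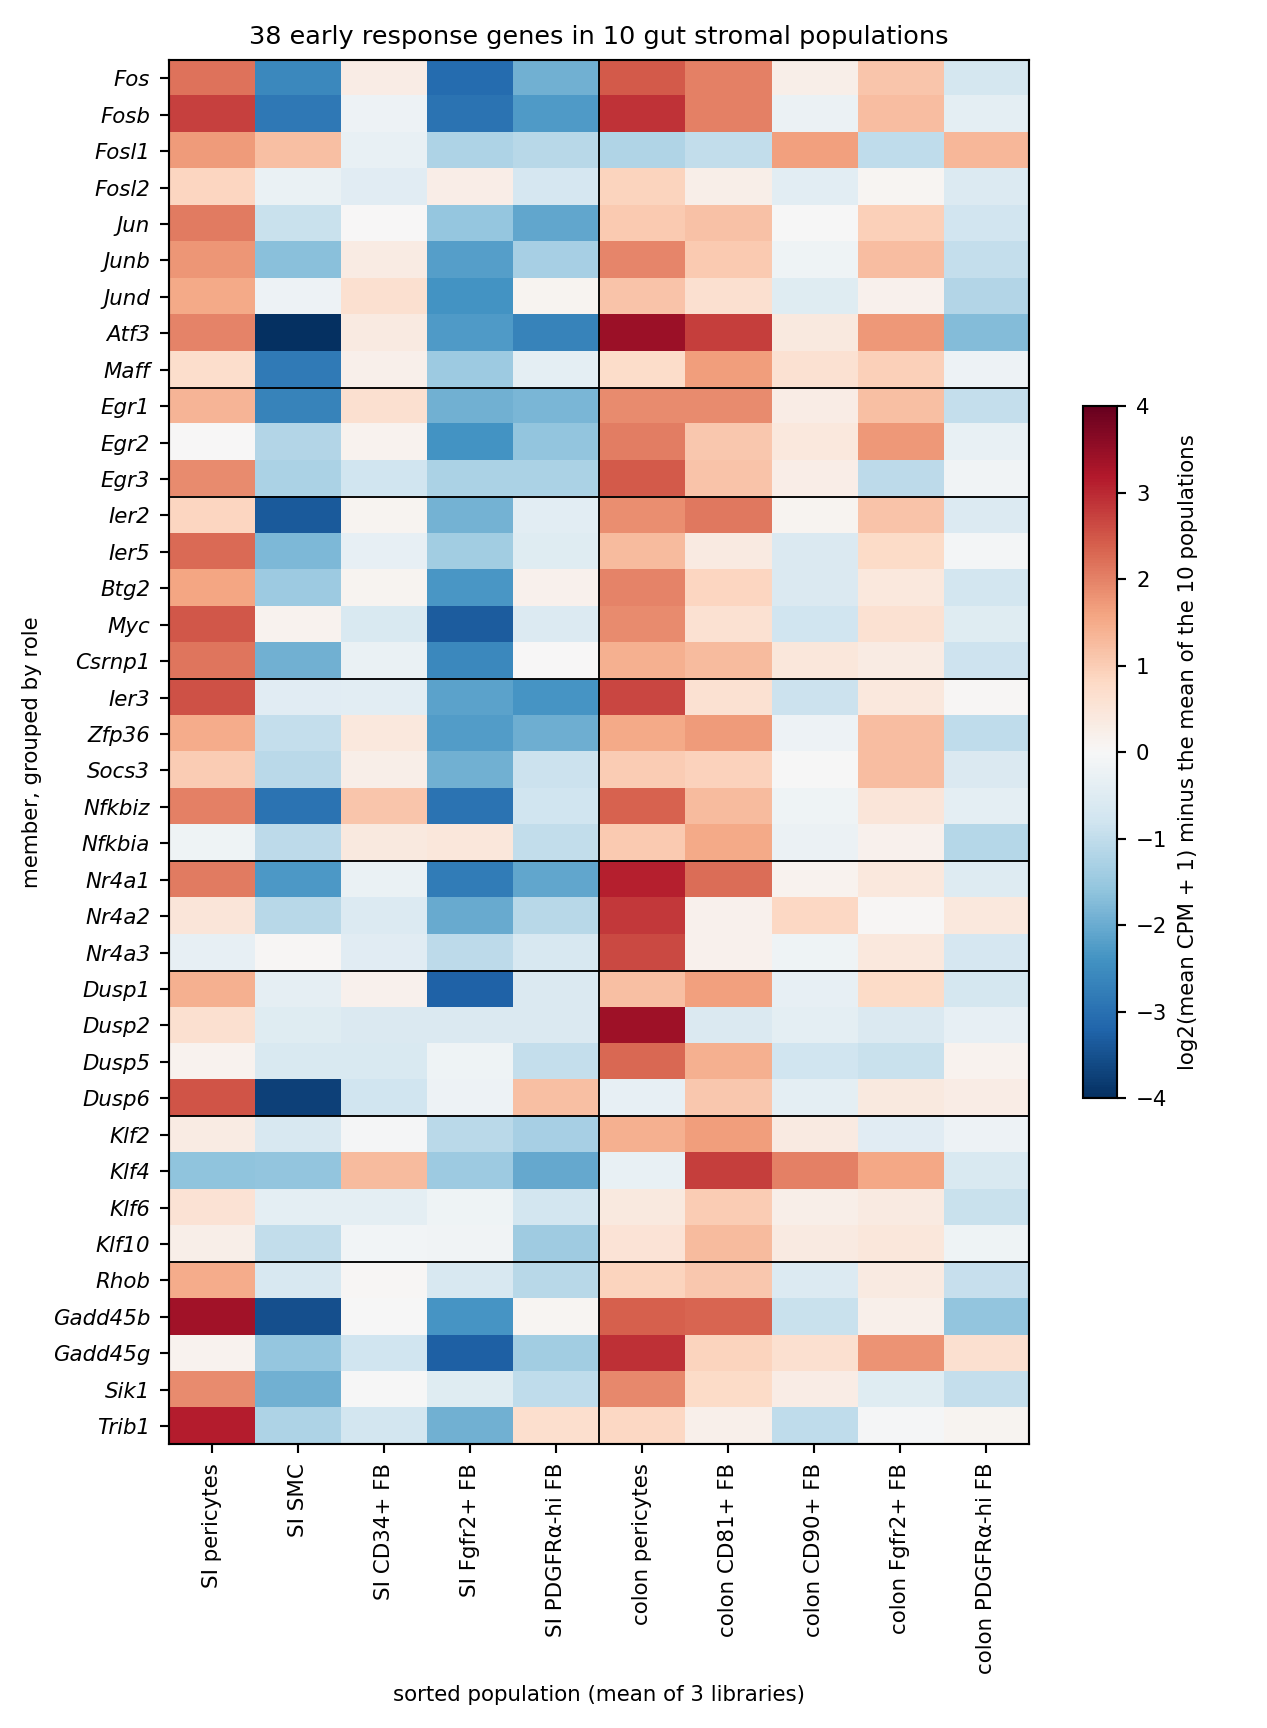
Heat map of the 38 members (vertical axis, grouped by role) in the 10 sorted populations (horizontal axis), coloured by log2(mean CPM + 1) of 3 libraries minus the mean over populations. Red is above and blue below a gene's mean, and the pericyte columns hold the highest mean of 28 members.

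Genes differ in length, so levels of different members are compared as CPM per kb of effective transcript length. On that scale, averaged over the 30 libraries, Egr1 had the highest level at 823 CPM per kb, followed by Dusp1 at 352, Zfp36 at 261, Fosb at 162, Jun at 149 and Fos at 143 CPM per kb. The lowest level was 0.79 CPM per kb, for Dusp5, and Dusp2, Fosl1 and Egr3 were the next lowest. The members of a role shared their level unequally. Egr1 held between 94.4% and 97.5% of the CPM per kb of the 3 EGR factors in every population, and Dusp1 between 73.9% and 99.7% of that of the 4 phosphatases. Among the 9 AP-1 and small Maf factors the gene with the highest level per kb was Fosb in the pericytes of both tissues, Fos in CD81+ FB, Fosl2 in SMC, Fgfr2+ FB and PDGFRα hi FB of the small intestine, and Jun in the 4 other FB populations. In small intestinal Fgfr2+ FB, Fosl2 held 70.2% of the level per kb of these 9 factors.

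Egr1, a zinc finger factor that binds GC-rich sites, was at 1826, 6439 and 3194 CPM in replicates 1, 2 and 3 of small intestinal pericytes, 225, 291 and 182 CPM in SMC, 2361, 1886 and 2679 CPM in CD34+ FB, 378, 407 and 390.4 CPM in Fgfr2+ FB and 532, 260.5 and 455 CPM in PDGFRα hi FB. Its colonic libraries held 4368, 6719 and 5480 CPM in pericytes, 4691, 6929 and 4885 CPM in CD81+ FB, 1267, 1756 and 2446 CPM in CD90+ FB, 1848, 4405 and 3963 CPM in Fgfr2+ FB and 683, 677 and 946 CPM in PDGFRα hi FB. Dusp1, a nuclear phosphatase that inactivates MAP kinases, was at 783, 1391 and 1243 CPM in small intestinal pericytes, 173, 123 and 702 CPM in SMC, 367, 445 and 611 CPM in CD34+ FB, 22.9, 31.3 and 77.5 CPM in Fgfr2+ FB and 314, 290.1 and 248 CPM in PDGFRα hi FB. In the colon it was at 731, 1119 and 1100 CPM in pericytes, 761, 2035 and 1190 CPM in CD81+ FB, 246, 389 and 384 CPM in CD90+ FB, 381, 694 and 1081 CPM in Fgfr2+ FB and 197, 247 and 342 CPM in PDGFRα hi FB. The 3 small intestinal Fgfr2+ FB libraries were the lowest of all for Dusp1, and SMC replicate 3, the library with the high mitochondrial share, was well above the 2 other SMC libraries. Zfp36 (tristetraprolin), which binds AU-rich elements and speeds the decay of early response mRNAs, was at 479.5, 1922 and 1227 CPM in small intestinal pericytes, 195, 237 and 232 CPM in SMC, 594, 438 and 689 CPM in CD34+ FB, 188, 47.9 and 36.8 CPM in Fgfr2+ FB and 136, 96 and 98.3 CPM in PDGFRα hi FB. Its colonic values were 995, 1473 and 1183 CPM in pericytes, 1217, 2023 and 931 CPM in CD81+ FB, 228, 354 and 525 CPM in CD90+ FB, 508, 1330 and 1200 CPM in Fgfr2+ FB and 158, 204 and 264 CPM in PDGFRα hi FB.

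**Figure D2:**
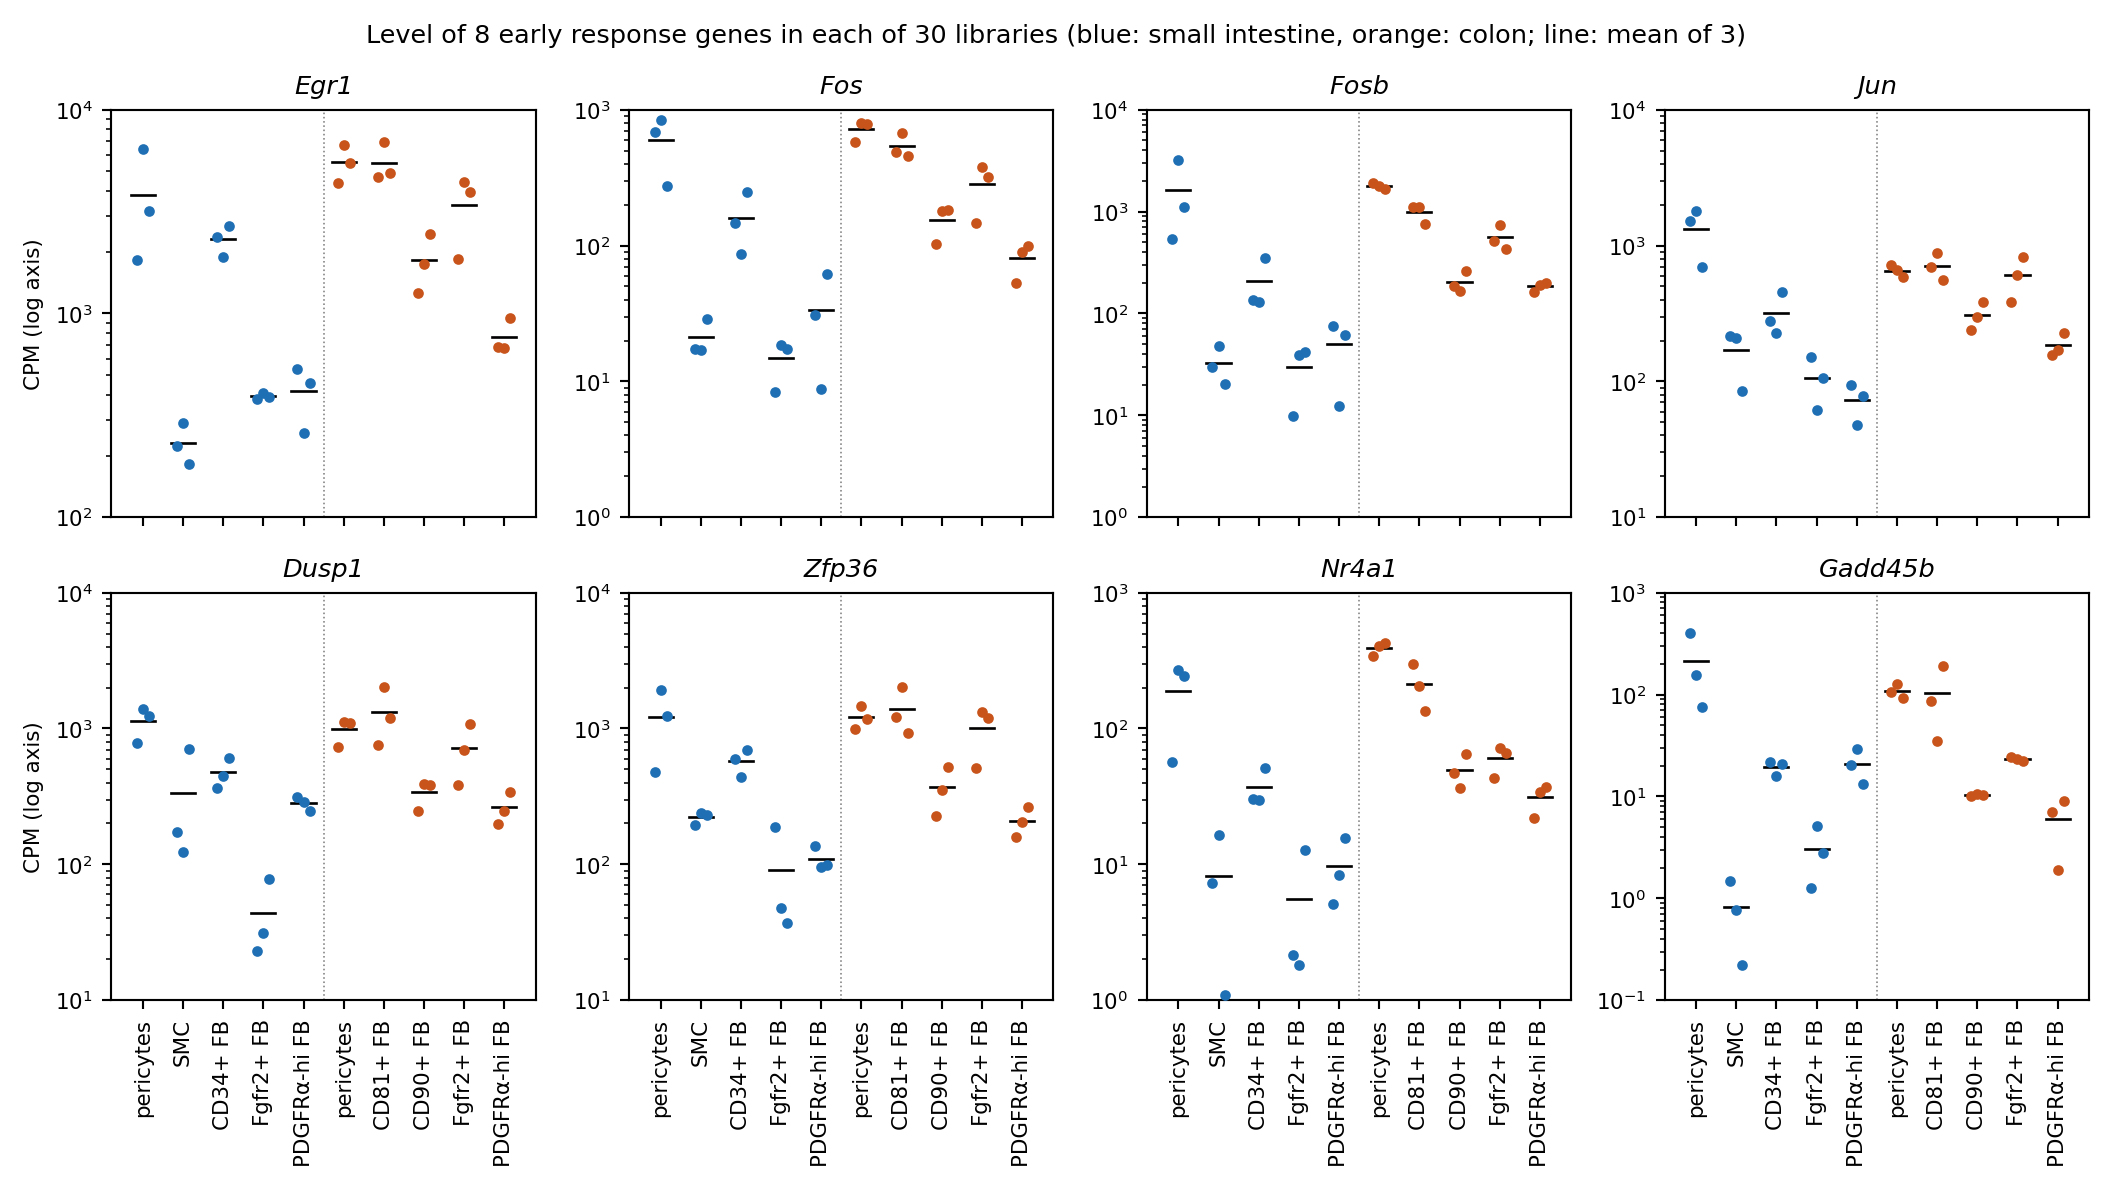
Level in CPM (vertical axis, log scale) of Egr1, Fos, Fosb, Jun, Dusp1, Zfp36, Nr4a1 and Gadd45b in each of the 30 libraries, by population (horizontal axis), with small intestine in blue, colon in orange and the mean of 3 libraries as a line. For Dusp1 the small intestinal Fgfr2+ FB libraries lie between 22.9 and 77.5 CPM, below all others.

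The 3 subsets sorted from both tissues, pericytes, Fgfr2+ FB and PDGFRα hi FB, allow the members to be compared between small intestine and colon. The widest difference was in Fgfr2+ FB, where the members were low in the small intestine and high in the colon. There 16 of the 38 members were called, all 16 with the higher level in the colon. A gene was called at an adjusted p below 0.05 (edgeR quasi-likelihood test, Benjamini-Hochberg adjustment over all 17505 genes, 1 model of the 30 libraries) and an absolute log2 fold change above 1.5. Of all genes tested, 0.943% were called with the higher level in the colon and 0.514% with the higher level in the small intestine. The median log2 fold change, small intestine minus colon, was −2.85 over the members and −0.02 over all genes tested. The value was negative in 33 members and positive in 4. With the 2 members at 0 in the small intestine set to their bound and Dusp2, at 0 in both groups, left out, the members' median was −2.73. All 3 colonic libraries lay above all 3 small intestinal ones in 25 members, and in 9.59% of all genes. DESeq2 called 21 of the members, and without the 4 libraries that stood apart edgeR called 17, of which 14 were among the 16, Ier3 (edgeR adjusted p = 0.0568) and Socs3 (0.0795) being lost. Socs3 also lost its call with the replicate number as a block (0.0547).

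Among the AP-1 and small Maf factors, Fos, Fosb, Jun, Junb and Atf3 were called. Fos, the partner of Jun in AP-1 dimers, was at 8.38, 18.7 and 17.3 CPM in replicates 1 to 3 of the small intestine and at 146, 378 and 320.3 CPM in those of the colon. The lowest colonic library was well above the highest small intestinal one (log2 fold change −4.26, SE 0.588, edgeR adjusted p = 9.4e-05). Fosb, a second Fos family factor, was at 9.85, 38.8 and 41.5 CPM and 519, 746 and 433 CPM, with replicate 1 lowest in the small intestine and no overlap (log2 fold change −4.25, SE 0.642, edgeR adjusted p = 0.000199). Jun was at 150.5, 61.2 and 106 CPM against 382, 608 and 821 CPM, and the difference was narrower, with no overlap (log2 fold change −2.51, SE 0.421, edgeR adjusted p = 0.000726). Junb, which competes with Jun for the same partners, was at 17.2, 4.06 and 9.52 CPM against 77.6, 130.3 and 151 CPM, again without overlap (log2 fold change −3.53, SE 0.73, edgeR adjusted p = 0.00617). Atf3, a stress-induced factor of the ATF/CREB family, was at 1.82, 3.88 and 7.27 CPM against 50.3, 124 and 79.6 CPM, with every colonic library far above (log2 fold change −4.36, SE 0.892, edgeR adjusted p = 0.00562). Jund, at 0.419, 13.1 and 1.73 CPM against 28.1, 34.8 and 41 CPM, did not overlap but was not called (edgeR adjusted p = 0.108). Maff, a small Maf without an activation domain, was at 0.14, 7.58 and 6.58 CPM against 3.82, 33.4 and 52.2 CPM, with overlap (edgeR adjusted p = 0.284). Fosl2 was at 561, 161 and 256 CPM against 213, 273 and 373 CPM, the highest value being small intestinal replicate 1 (edgeR adjusted p = 0.926). Fosl1 had no count in the small intestinal libraries and 0, 4 and 1 counts in the colonic ones. Its counts are uncertain in every population, since its transcripts share 60.4% of their 31-mers with those of Ccdc85b.

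Egr1 was the EGR factor called, and its colonic libraries, given above, all exceeded the small intestinal ones (log2 fold change −3.12, SE 0.389, edgeR adjusted p = 2.5e-05). Egr2 was at 0.0698, 9.48 and 0 CPM in small intestine, and at 45, 105 and 62.3 CPM in colon, without overlap but with replicate 2 far above the 2 other small intestinal libraries (edgeR adjusted p = 0.0603). Egr3 had no count in the small intestine and 0, 1 and 4 counts in the colon. Of the other early regulators, Btg2, an antiproliferative protein that recruits mRNA deadenylases, was at 19.3, 28.6 and 14.5 CPM against 82, 194 and 155 CPM. Its groups were well separated (log2 fold change −2.78, SE 0.52, edgeR adjusted p = 0.00243). Myc, a driver of cell growth, was at 1.61, 7.86 and 1.04 CPM against 38, 82.3 and 83 CPM, and the groups were far apart (log2 fold change −4.21, SE 0.746, edgeR adjusted p = 0.00134). Ier2, at 6.56, 0.271 and 14.5 CPM against 11.6, 64 and 123 CPM, overlapped through colonic replicate 1 (edgeR adjusted p = 0.0784). Ier5, at 18.6, 37.2 and 3.12 CPM against 45.7, 133 and 97.5 CPM, and Csrnp1, at 0.768, 1.99 and 0.692 CPM against 13.9, 12.1 and 19.4 CPM, did not overlap and were not called (edgeR adjusted p = 0.315 and 0.149).

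Of the 5 feedback genes, 4 were called. Zfp36 had the smallest adjusted p of these, and its colonic libraries, given above, all exceeded the small intestinal ones (log2 fold change −3.48, SE 0.535, edgeR adjusted p = 0.000247). Ier3, which prolongs ERK signalling, was at 3.35, 12.5 and 1.04 CPM against 28.7, 41.4 and 44.6 CPM, with small intestinal replicate 2 the closest to the colon (log2 fold change −2.72, SE 0.623, edgeR adjusted p = 0.016). Socs3, an inhibitor of JAK-STAT signalling, was at 41.5, 7.95 and 14.9 CPM against 72.3, 307 and 212 CPM (log2 fold change −3.19, SE 0.796, edgeR adjusted p = 0.0323). Nfkbiz, the nuclear IκBζ that NF-κB needs at a subset of its targets, was at 0.42, 2.11 and 9 CPM against 15.8, 64.6 and 76 CPM (log2 fold change −3.91, SE 0.969, edgeR adjusted p = 0.0309). Neither overlapped, and in both the lowest colonic library was replicate 1. Nfkbia, which encodes the IκBα inhibitor, stood at 49.9, 15.7 and 24.6 CPM against 13.3, 19.1 and 41.8 CPM, with wide overlap (edgeR adjusted p = 0.952).

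Nr4a1 was the NR4A receptor called, at 2.17, 1.81 and 12.8 CPM in the Fgfr2+ FB of the small intestine, against 43.1, 71.5 and 66 CPM in the colonic ones (log2 fold change −3.54, SE 0.758, edgeR adjusted p = 0.00863). Nr4a2, at 1.5, 2.25 and 7 CPM against 18.7, 20.01 and 16 CPM, did not overlap, while Nr4a3, at 17.8, 2.02 and 8.58 CPM against 63.2, 10.9 and 8.68 CPM, did (edgeR adjusted p = 0.275 and 0.463). Dusp1 was the phosphatase called, with its colonic libraries between 381 and 1081 CPM against the 22.9 to 77.5 CPM of the small intestine (log2 fold change −4.05, SE 0.568, edgeR adjusted p = 9.4e-05). Dusp6, a cytoplasmic phosphatase of ERK, was at 18.6, 10.7 and 36.7 CPM against 31.1, 37.2 and 34.4 CPM, with overlap (edgeR adjusted p = 0.851). Dusp5 had 0, 0 and 7 counts in the small intestinal and 2, 0 and 1 counts in the colonic libraries, and Dusp2 had no count in any of the 6. Gadd45g and Gadd45b bind the MAP kinase kinase kinase upstream of stress kinases. Gadd45g was at 0.0698, 5.15 and 1.73 CPM against 76.7, 107 and 143 CPM, the largest difference of the called members (log2 fold change −5.53, SE 1.11, edgeR adjusted p = 0.00493). Gadd45b was at 1.26, 5.15 and 2.77 CPM against 24.4, 23.1 and 22.1 CPM, and its colonic libraries lay close together (log2 fold change −2.92, SE 0.696, edgeR adjusted p = 0.023). Rhob, an endosomal GTPase, was at 81.8, 165 and 117 CPM against 187, 212 and 326 CPM and Trib1, a pseudokinase, at 5.87, 36.6 and 48.1 CPM against 49.2, 125 and 165 CPM, both without overlap and not called (edgeR adjusted p = 0.333 and 0.178). Sik1, a kinase that restrains CREB coactivators, was at 33.3, 31.1 and 19.7 CPM against 21.1, 28.8 and 34.4 CPM, with overlap (log2 fold change 0.00, edgeR adjusted p = 1).

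Of the 4 KLF factors edgeR called 0, with 1 at an unadjusted p below 0.05, and DESeq2 called 1. Klf4 was at 51, 12 and 6.26 CPM in small intestine, and at 140.3, 219.9 and 215 CPM in colon, without overlap and just short of the threshold (edgeR adjusted p = 0.0564). Klf6 differed little, at 209, 179 and 244 CPM against 258, 301 and 362 CPM, and did not overlap, while Klf2, at 10.6, 4.15 and 11.8 CPM against 7.34, 19.8 and 15.5 CPM, and Klf10, at 36.3, 25.9 and 49.1 CPM against 61.6, 39.7 and 70.0 CPM, overlapped.

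Single libraries decided part of these calls in Fgfr2+ FB. Leaving out each of the 6 libraries in turn, edgeR called between 12 and 16 members, and 9 members (Fos, Fosb, Jun, Egr1, Btg2, Myc, Zfp36, Dusp1 and Gadd45g) were called each time. Without small intestinal replicate 2 the edgeR adjusted p was 0.0602 for Junb, 0.0759 for Nr4a1, 0.158 for Socs3 and 0.152 for Nfkbiz. Without small intestinal replicate 1 it was 0.0606 for Atf3, 0.126 for Ier3, 0.0887 for Nr4a1, 0.16 for Gadd45b and 0.163 for Nfkbiz. Without small intestinal replicate 3, the library of the lowest depth, it was 0.0775 for Ier3, 0.0896 for Gadd45b and 0.135 for Socs3. Among the colonic libraries, leaving out replicate 1 ended the call of Gadd45b (0.0559), replicate 2 those of Gadd45b (0.0535), Socs3 (0.139) and Nfkbiz (0.0833), and replicate 3 those of Ier3 (0.0551), Gadd45b (0.0501), Socs3 (0.0769) and Nfkbiz (0.107), with the edgeR adjusted p in parentheses. In a fit of only the 6 libraries, Ier3 (0.172), Nr4a1 (0.0692), Gadd45b (0.136) and Nfkbiz (0.114) were not called, and counts made from length-scaled TPM ended the calls of Atf3 (0.0614) and Nfkbiz (0.0546).

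Other genes of the same response were set beside the members in Fgfr2+ FB. Of 49 further early response genes tested, 6 were called, all 6 higher in the colon, with a median log2 fold change of −0.68 over the list. Among them were Il6, Bhlhe40 and Ppp1r15a. Il6, an inflammatory cytokine, had a mean of 0 CPM in small intestine, and 5.53 CPM in colon. Bhlhe40, a repressor of the circadian and hypoxia responses, averaged 14.8 CPM against 313 CPM (log2 fold change −4.42, SE 0.816, edgeR adjusted p = 0.00207), and Ppp1r15a, a phosphatase subunit of the stress response, 14.7 CPM against 131 CPM (log2 fold change −3.13, SE 0.593, edgeR adjusted p = 0.00265). Of 15 heat shock genes edgeR called 0, with 6 at an unadjusted p below 0.05, and DESeq2 called 3. In edgeR 1 of them passed the adjusted p with a log2 fold change under the threshold. All 15 had a negative log2 fold change, with a median of −0.89. The heat shock list summed to 2500, 1985 and 1893 CPM in the small intestinal and to 2225, 3468 and 5297 CPM in the colonic libraries, with Hsp90ab1 the most abundant gene of small intestinal replicate 1 and Hspa5 that of colonic replicate 3. The colonic library with the lowest heat shock sum, replicate 1, also had the lowest sum over the members, 5504 CPM against 11000 and 10910 CPM. Whether stress of the cells had a part in the difference between the tissues was not tested. Of 28 genes of the MAP kinase and SRF pathway upstream of the members edgeR and DESeq2 called 0, with 1 at an unadjusted p below 0.05 in edgeR and a median log2 fold change of −0.18.

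The gate markers differed as well. The 6 markers of CD34+ FB summed to 818, 583 and 265 CPM in small intestinal and to 1170, 1990 and 3840 CPM in colonic Fgfr2+ FB, with C3 the most abundant in 5 of the 6 libraries and Cd34 in colonic replicate 1. All 6 had a negative log2 fold change and 2 were called, Cd34 (log2 fold change −2.52, SE 0.515, edgeR adjusted p = 0.00562) and Pi16. Pi16 averaged 0.357 CPM in small intestine, and 32.1 CPM in colon. Of the 5 gate genes outside that list 3 were called, 2 higher in the colon and 1 higher in the small intestine. Among them, Thy1 (CD90) averaged 0.192 CPM in small intestine, and 26.6 CPM in colon, and Fgfr2 itself was higher in the small intestine. Of these 5 genes Igfbp5 was the most abundant in each colonic library, at 1245, 1272 and 1928 CPM, and Fgfr2 in each small intestinal one. The 8 pericyte markers summed to between 2202 and 2468 CPM in small intestinal and to between 671 and 1020 CPM in colonic Fgfr2+ FB, with Rgs5 the most abundant in each. Of these 8 markers 1 was called, with the higher level in the small intestine. The Fgfr2+ FB libraries of both tissues were also closest to other populations. The 8 smooth muscle markers summed to 892.2, 944.5 and 610.5 CPM in the Fgfr2+ FB of the small intestine, against 366.3, 328.3 and 555.9 CPM in the colonic ones, mostly with Acta2 the most abundant, and Myh11 and Des were called higher in the small intestine. The part of CD34+ FB, pericyte and smooth muscle markers in the member differences was not tested.

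**Figure D3:**
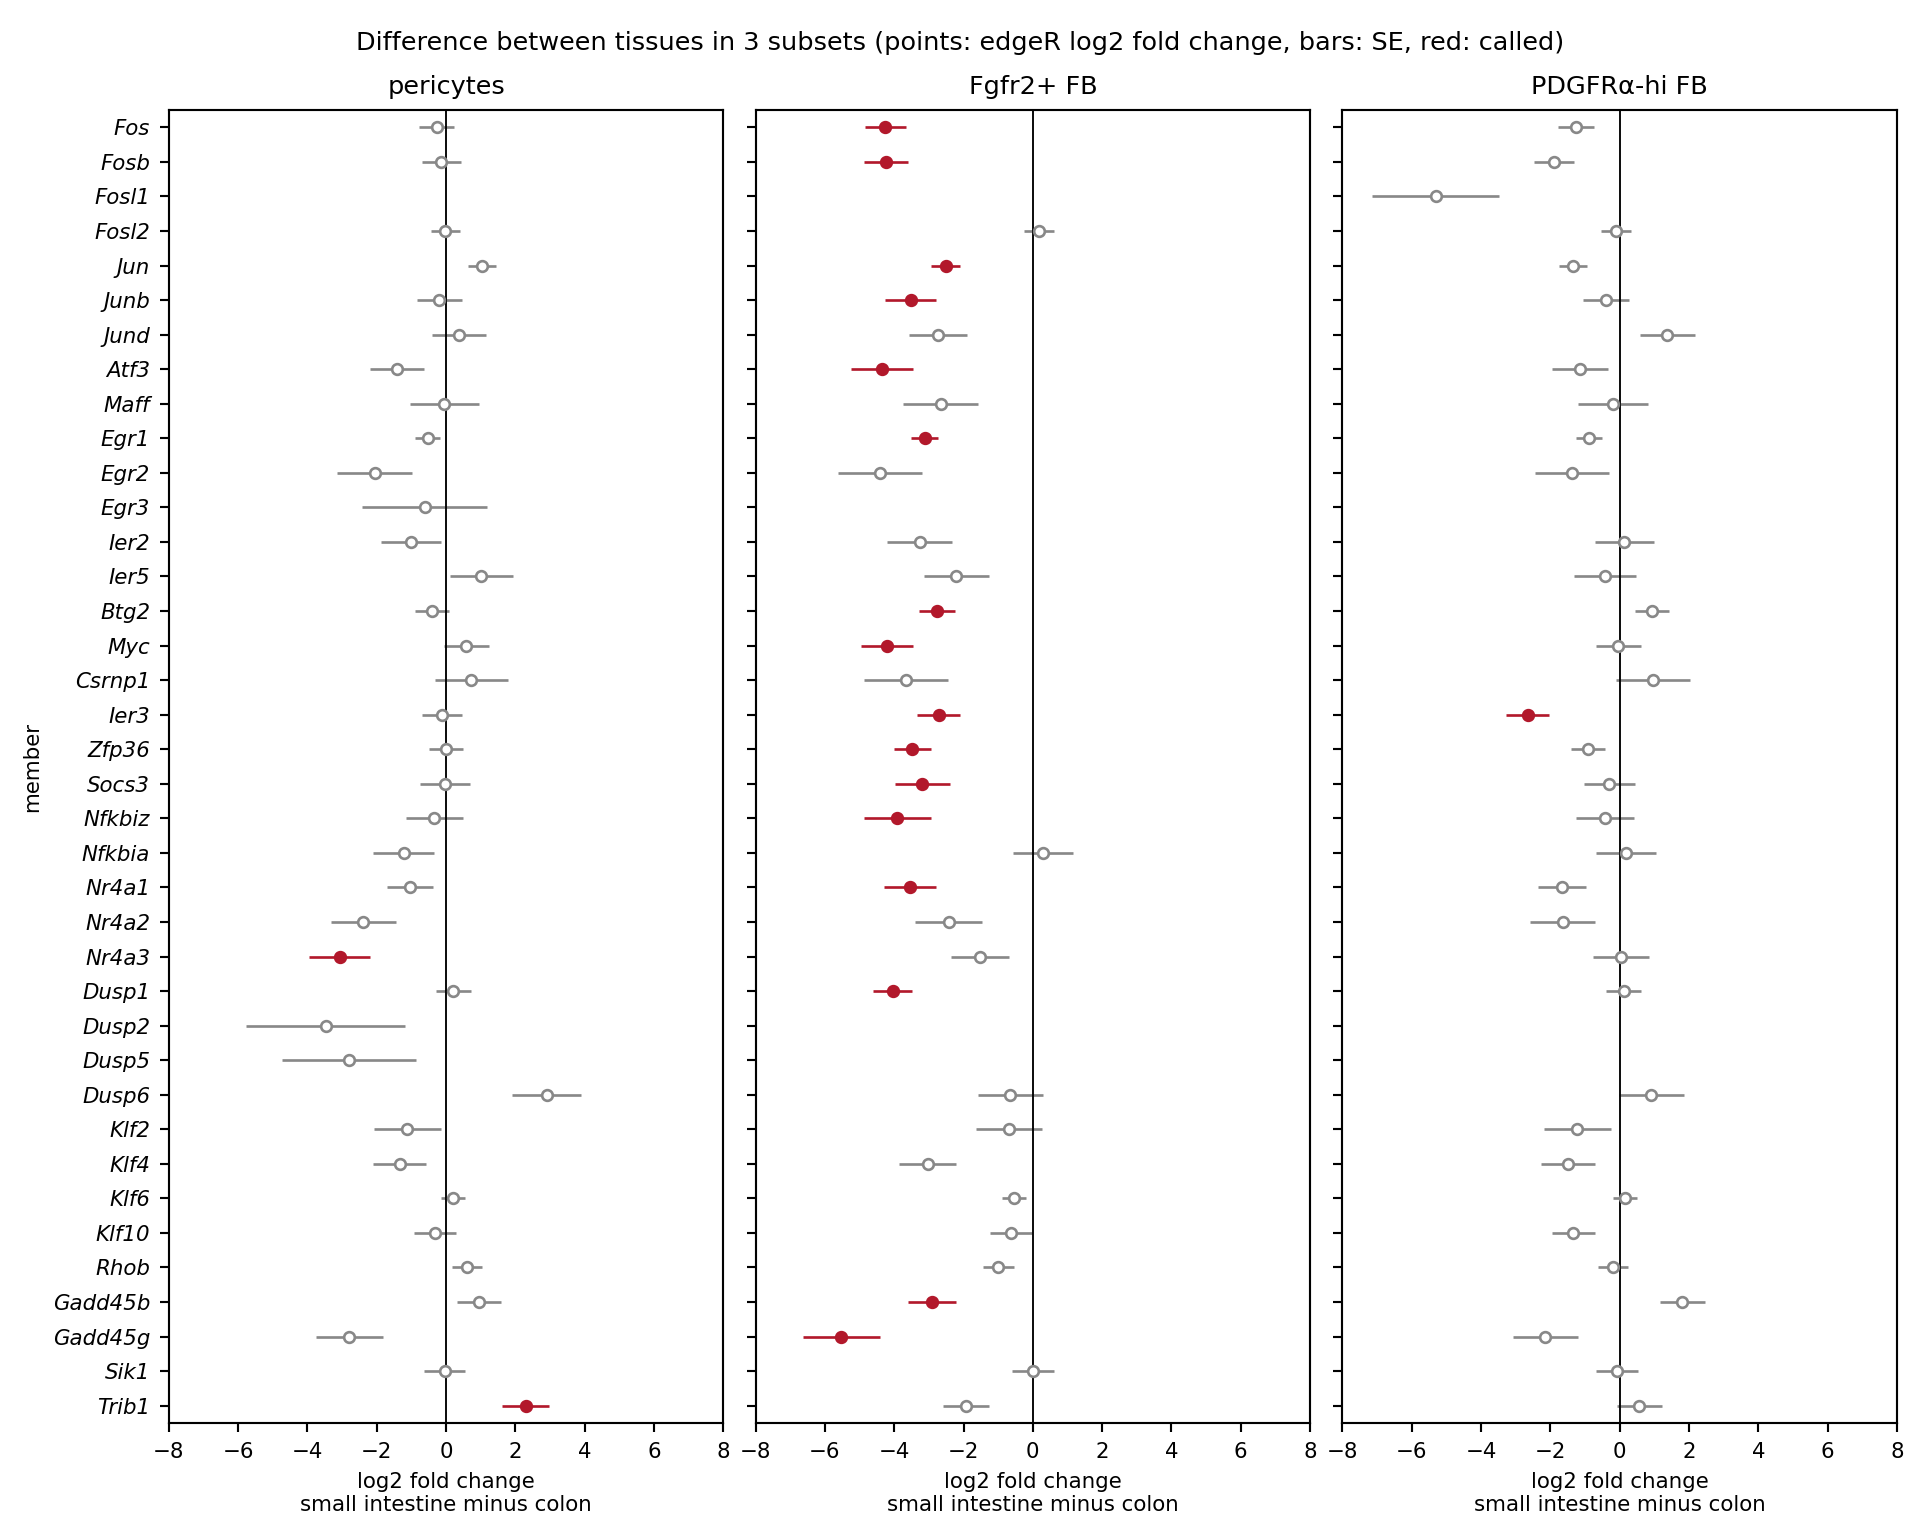
Log2 fold change of each member (horizontal axis, small intestine minus colon, bars for SE, red where called) in pericytes, Fgfr2+ FB and PDGFRα hi FB, with members with 3 counts or fewer on a side left out. In Fgfr2+ FB the 16 called members lie between −5.53 and −2.51.

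Between the pericytes of small intestine and colon 3 of the 38 members were called, Fosl1 and Trib1 with the higher level in the small intestine and Nr4a3 in the colon. Of all genes, 2.98% were called with small intestine higher and 2.78% with colon higher, shares so near those of the members that the counts say nothing about them as a group. The median log2 fold change was −0.16 over the members and 0.00 over all genes. Nr4a3, an orphan nuclear receptor that acts without a known ligand, was at 9.03, 2.65 and 36.1 CPM in the pericytes of the small intestine, against 130.5, 166 and 103 CPM in the colonic ones. Each colonic library lay well above each small intestinal one (log2 fold change −3.06, SE 0.882, edgeR adjusted p = 0.0375). Trib1, which brings a ubiquitin ligase to C/EBP factors, was at 1903, 668 and 543 CPM against 184, 219 and 231 CPM. Small intestinal replicate 1 was far above the 2 others, and all 3 exceeded the colon (log2 fold change 2.297, SE 0.67, edgeR adjusted p = 0.0401). Fosl1 had 0, 124 and 35 counts in the small intestinal and 0, 0 and 1 counts in the colonic libraries, so that its call rested on 2 libraries and on counts that are uncertain.

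The other members of the pericyte comparison stayed short of the threshold. Dusp6 was at 338, 71.1 and 43.8 CPM in small intestine, and at 18.7, 39.3 and 2.59 CPM in colon, without overlap (log2 fold change 2.90, SE 0.996, edgeR adjusted p = 0.0774). Gadd45g was at 6.87, 49.1 and 46.6 CPM against 149, 397 and 167 CPM, and Nr4a2 at 2.41, 4.55 and 67.8 CPM against 132, 109 and 150.0 CPM, both higher in each colonic library (edgeR adjusted p = 0.079 and 0.121). Egr2, at 4.51, 18.4 and 40.4 CPM against 44.1, 113 and 108 CPM, Atf3, at 105, 163 and 36.7 CPM against 190.4, 361 and 266 CPM, Nr4a1, at 56.7, 269 and 244 CPM against 341, 402 and 424 CPM, and Nfkbia, at 0, 32.1 and 26 CPM against 35.2, 61 and 40.2 CPM, were also higher in each colonic library, without a call. Fos was at 682, 839 and 275 CPM against 580.0, 801 and 778 CPM and Fosb at 534, 3224 and 1109 CPM against 1925, 1776 and 1652 CPM, with overlap in both (edgeR adjusted p = 0.808 and 0.941). Without 1 library the count of called members lay between 0 and 5, and it fell to 0 without colonic replicate 1 or 2, to 1 without colonic replicate 3 or small intestinal replicate 1, and rose to 5 without small intestinal replicate 3. Without the 4 libraries that stood apart it was 1, with Nr4a3 (edgeR adjusted p = 0.113) and Trib1 (0.125) lost, DESeq2 called 6 members, and with no filter on low counts 5 were called. In a fit of only the 6 pericyte libraries edgeR called 0 members, with 6 at an unadjusted p below 0.05, and the adjusted p was 0.437 for Nr4a3 and 0.275 for Trib1. With the replicate number as a block it was 0.0638 for Trib1 and 0.0528 for Fosl1. For Nr4a3 the edgeR adjusted p was 0.0568 and 0.0754 without colonic replicates 1 and 2, 0.116 and 0.0952 without small intestinal replicates 1 and 2, and 0.085 with length-scaled TPM counts. For Trib1 it was 0.0982, 0.0939 and 0.0774 without colonic replicates 1, 2 and 3, and 0.211 without small intestinal replicate 1, where the log2 fold change was 1.49. For Fosl1 it was 0.0924, 0.0971 and 0.063 without colonic replicates 1, 2 and 3 and 0.0866 without small intestinal replicate 2.

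Pericytes of the tissues also differed in other listed genes. Of 49 further early response genes 5 were called, Spry2, Per1 and Zfp36l2 higher in small intestinal and Thbs1 and Mafk in colonic pericytes. The smooth muscle markers, 8 genes with Myh11 mostly the most abundant, summed to 4759, 3383 and 3608 CPM in small intestinal and to 10860, 11880 and 11990 CPM in colonic pericytes, and 2 of the 8 were called higher in the colon. The endothelial markers summed to 377, 279.8 and 198.7 CPM against 109.2, 127.8 and 111.7 CPM, and Tek was called higher in the small intestine. The 6 markers of CD34+ FB summed to 81.18, 54.29 and 98.73 CPM in small intestinal pericytes. In colonic pericytes they summed to 262.9, 251.1 and 212.5 CPM, with Cd81 the most abundant, and 1 was called higher there. Of 11 immune markers tested 1 was called higher in the colon. Most went the other way, with 7 positive and 4 negative log2 fold changes and a median of 1.33. The 15 immune markers summed to 218, 27.79 and 83.93 CPM in small intestinal and to 28.94, 153.5 and 41.49 CPM in colonic pericytes. Of 7 markers of PDGFRα hi FB 2 were called, 1 in each direction. The part of all these lists in the member differences was not tested. Of the 15 heat shock genes Hspb8 was called, with the higher level in colonic pericytes (log2 fold change −4.04, SE 1.05, edgeR adjusted p = 0.0233).

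In PDGFRα hi FB the member sum was low in both tissues, and Ier3 was the member called. It was at 6.16, 3.1 and 4.82 CPM in the PDGFRα hi FB of the small intestine, against 25.7, 25.1 and 37.6 CPM in the colonic ones. Each colonic library lay well above each small intestinal one (log2 fold change −2.66, SE 0.623, edgeR adjusted p = 0.0264). That made 1 of 38 members higher in the colon, where 0.628% of all genes were called, and the share of all genes called higher in the small intestine was 0.337%. The median log2 fold change was −0.42 over the members and 0.02 over all genes. Fosb was at 74.9, 12.3 and 61.9 CPM against 161, 192 and 201 CPM and Jun at 93.5, 47.4 and 77.9 CPM against 156, 171 and 229 CPM, both higher in each colonic library but not called (edgeR adjusted p = 0.161 and 0.148). In the other direction, Gadd45b was at 20.4, 29 and 13.2 CPM against 6.99, 1.92 and 8.96 CPM and Btg2 at 106, 85.5 and 176 CPM against 43.1, 73.9 and 75.7 CPM, both higher in each small intestinal library and not called (edgeR adjusted p = 0.366 and 0.849). Fosl1 had 0, 5 and 0 counts in the small intestinal and 31, 3 and 77 counts in the colonic libraries, and Egr3 had none in the small intestine and 0, 21 and 7 counts in the colon.

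The call of Ier3 in PDGFRα hi FB depended on single libraries. Colonic replicate 3 held 121 CPM of epithelial markers, mostly Muc2, against 11.15 and 5.106 CPM in colonic replicates 1 and 2. Its heat shock sum was 3993 CPM, against 2559 and 2221 CPM, and its member sum 3619 CPM, against 2536 and 2480 CPM. The edgeR adjusted p of Ier3 was 0.0792, 0.195 and 0.127 without small intestinal replicates 1, 2 and 3, and 0.054 and 0.114 without colonic replicates 1 and 3, so that the count fell to 0 each time, with 7 to 11 members at an unadjusted p below 0.05. DESeq2 called 2 members, and so did edgeR without the 4 libraries that stood apart, with no filter on low counts, or in a fit of only these 6 libraries. All 8 pericyte markers had a positive log2 fold change, with a median of 1.64, and Rgs5 and Abcc9 were called. They summed to 3183, 3731 and 3112 CPM in the PDGFRα hi FB of the small intestine, against 637.6, 582.8 and 668.4 CPM in the colonic ones, with Abcc9 the most abundant in each. The smooth muscle markers summed to 2494, 3923 and 2681 CPM, with Myh11 the most abundant, against 1574, 1403 and 2509 CPM, with Acta2 the most abundant, and Des was called higher in the small intestine. Of 3 Cajal and mesothelial markers tested 1 was called, with the higher level in the colon, while 2 had a positive log2 fold change. Ano1 was the most abundant of that list in each colonic library, at 76.98 to 81.49 CPM. In each small intestinal library it was Kit, at 7.099 to 43.41 CPM. Of 6 markers of CD34+ FB edgeR called 0, with 4 at an unadjusted p below 0.05, and DESeq2 called 3. In edgeR 5 of the 6 had a negative log2 fold change, with a median of −1.56 over the list. The part of all these markers in the members was not tested. Of the 49 further early response genes, Rgs2 (log2 fold change −5.52, SE 0.926, edgeR adjusted p = 0.000666), Ptgs2 and Ccn2 were called, all 3 higher in colonic PDGFRα hi FB.

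Whether the tissue difference of a member differed between the 3 subsets was tested as an interaction in the same model. It did for 11 of the 38 members, where 2.67% of all genes were called at an adjusted p below 0.05 (edgeR quasi-likelihood F test). They were Dusp1 (edgeR adjusted p = 0.000885), Jun (0.00141), Fos (0.00526), Egr1 (0.00561), Myc (0.0072), Btg2 (0.00734), Gadd45b (0.00829), Zfp36 (0.0105), Fosb (0.0123), Fosl1 (0.0195) and Trib1 (0.0277). The log2 fold change of Dusp1, small intestine minus colon, was 0.21 in pericytes, −4.05 in Fgfr2+ FB and 0.12 in PDGFRα hi FB. For Jun it was 1.03, −2.51 and −1.34 in the same order, called in Fgfr2+ FB alone and with overlap in pericytes. Gadd45b had 0.96, −2.92 and 1.81, called in Fgfr2+ FB alone, and Trib1 had 2.297, −1.92 and 0.56, called in pericytes alone. Fos, Fosb, Egr1, Myc, Btg2 and Zfp36 were each called between tissues in Fgfr2+ FB and not in the 2 other subsets. Several members that were called in Fgfr2+ FB had no call here, among them Atf3 (edgeR adjusted p = 0.179), Nr4a1 (0.28), Socs3 (0.149) and Nfkbiz (0.159).

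Leaving out each of the 18 libraries in turn, edgeR called between 9 and 13 members in the interaction, and 14 without the 4 libraries that stood apart. The call of Trib1 was lost without colonic pericyte replicates 1 (0.059) and 2 (0.0596), small intestinal pericyte replicate 1 (0.0839), colonic Fgfr2+ FB replicates 2 (0.0544) and 3 (0.0784), and small intestinal Fgfr2+ FB replicates 1 (0.0574) and 2 (0.0517), with the edgeR adjusted p in parentheses. That of Fosl1 was lost without colonic pericyte replicates 1 (0.0664) and 2 (0.0642). In a fit of only the 18 libraries Fosb (0.0591), Zfp36 (0.0539) and Fosl1 (0.1) were not called.

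The members also differed among populations of 1 tissue. Among the 5 small intestinal populations 29 of 38 members were called (edgeR quasi-likelihood F test, adjusted p below 0.05), where 19.5% of all genes were. The 6 with the smallest adjusted p were Egr1 (edgeR adjusted p = 8.49e-10), Fosb (2.8e-09), Jun (6.09e-09), Fos (6.24e-09), Gadd45b (8e-09) and Ier3 (1.4e-07). Fos was at 682, 839 and 275 CPM in pericytes, 146, 86.3 and 249 CPM in CD34+ FB, 30.8, 8.74 and 61.3 CPM in PDGFRα hi FB, 17.2, 17.1 and 29 CPM in SMC and 8.38, 18.7 and 17.3 CPM in Fgfr2+ FB. Fosb was at 534, 3224 and 1109 CPM in pericytes, 136, 131 and 354 CPM in CD34+ FB, 74.9, 12.3 and 61.9 CPM in PDGFRα hi FB, 29.7, 47.5 and 20.4 CPM in SMC and 9.85, 38.8 and 41.5 CPM in Fgfr2+ FB. For both factors each pericyte library exceeded each library of the 4 other populations, CD34+ FB came next, and the last 3 overlapped. Jun had the same order at the top, at 1505, 1800 and 696 CPM in pericytes and 277, 226 and 456 CPM in CD34+ FB, and was at 216, 210.2 and 84.8 CPM in SMC and 93.5, 47.4 and 77.9 CPM in PDGFRα hi FB. Gadd45b was at 402, 157 and 75 CPM in pericytes, 21.9, 15.7 and 20.7 CPM in CD34+ FB, 20.4, 29 and 13.2 CPM in PDGFRα hi FB, 1.26, 5.15 and 2.77 CPM in Fgfr2+ FB and 1.48, 0.771 and 0.22 CPM in SMC. Ier3 was at 256, 145 and 116 CPM in pericytes, 18.4, 20.3 and 24.1 CPM in CD34+ FB and 7.91, 32.4 and 20.8 CPM in SMC, and at the levels given above in the libraries of the 2 other FB populations.

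By role, all 9 AP-1 and small Maf factors, all 5 other early regulators, 4 of 5 feedback genes, 4 of 5 kinase, stress and GTPase genes, 2 of 3 EGR factors, 2 of 4 phosphatases, 2 of 4 KLF factors and 1 of 3 NR4A receptors differed among the small intestinal populations. The 9 without a call were Egr2, Nfkbia, Nr4a2, Nr4a3, Dusp2, Dusp5, Klf2, Klf10 and Gadd45g, and the last was close to the threshold (edgeR adjusted p = 0.059). The KLF factor Klf4 followed another order, at 161, 119 and 185 CPM in CD34+ FB, 4.74, 47.5 and 9.42 CPM in pericytes, 7.8, 4.47 and 50.2 CPM in SMC, 51, 12 and 6.26 CPM in Fgfr2+ FB and 7.38, 15.5 and 21.3 CPM in PDGFRα hi FB (edgeR adjusted p = 0.00207). CD34+ FB were higher in each library than all other small intestinal libraries. Leaving out each of the 15 libraries gave between 25 and 30 called members, and without the 4 libraries that stood apart 27 were called. The calls of Fosl2, Klf6 and Maff were close to the threshold (edgeR adjusted p = 0.0436, 0.0438 and 0.0442) and were lost in 10, 9 and 10 of the 15 omissions, with an edgeR adjusted p up to 0.249 and 0.42 for Fosl2 and Klf6 without pericyte replicate 1 and 0.132 for Maff without SMC replicate 3. Without pericyte replicate 1, Ier5 (0.296) and Socs3 (0.125) were not called, nor were Egr3 without pericyte replicate 2 (0.155), Jund without Fgfr2+ FB replicate 3 (0.0524) and Socs3 without Fgfr2+ FB replicates 2 (0.0566) and 3 (0.0586). In a fit of only these 15 libraries Jund (0.0719), Fosl2 (0.106), Klf6 (0.111) and Maff (0.108) were not called. Leaving out the 4 libraries that stood apart ended the calls of Fosl2 (0.388), Klf6 (0.39), Maff (0.144), Ier5 (0.379) and Socs3 (0.305). Length-scaled TPM counts ended those of Fosl2 (0.0596), Klf6 (0.106) and Maff (0.0596), a replicate block those of Fosl2 (0.068) and Klf6 (0.0743), and no filter on low counts that of Klf6 (0.0819). The edgeR adjusted p is in parentheses. Of the other lists, 31 of 49 further early response genes, 7 of 15 heat shock genes and 5 of 28 genes of the MAP kinase and SRF pathway were called.

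Among the 5 colonic populations 20 of 38 members were called, where 14.1% of all genes were. The smallest adjusted p values were those of Egr1 (edgeR adjusted p = 6.31e-06), Gadd45b (2.72e-05), Fosb (0.000199), Ier3 (0.000214), Fos (0.000307) and Btg2 (0.000377). Fos was at 580.0, 801 and 778 CPM in pericytes, 485, 678 and 453 CPM in CD81+ FB, 146, 378 and 320.3 CPM in Fgfr2+ FB, 102, 179.6 and 183 CPM in CD90+ FB and 52.8, 89.9 and 99.7 CPM in PDGFRα hi FB. Fosb was at 1925, 1776 and 1652 CPM in pericytes, 1099, 1109 and 754 CPM in CD81+ FB, 519, 746 and 433 CPM in Fgfr2+ FB, 188, 167 and 261 CPM in CD90+ FB and 161, 192 and 201 CPM in PDGFRα hi FB. The PDGFRα hi FB libraries were the lowest for Fos, and for Fosb they overlapped with CD90+ FB. Gadd45b was at 106, 126 and 93.4 CPM in pericytes and 87, 35 and 190.5 CPM in CD81+ FB, which overlapped, and at 24.4, 23.1 and 22.1 CPM in Fgfr2+ FB, 10.2, 10.5 and 10.4 CPM in CD90+ FB and 6.99, 1.92 and 8.96 CPM in PDGFRα hi FB. Ier3 was at 154, 153 and 248 CPM in pericytes, 32, 71.8 and 26.9 CPM in CD81+ FB, 28.7, 41.4 and 44.6 CPM in Fgfr2+ FB and 12.2, 17.1 and 16.1 CPM in CD90+ FB. Btg2 was at 264, 569.8 and 448 CPM in pericytes, 202, 206 and 180.5 CPM in CD81+ FB, 82, 194 and 155 CPM in Fgfr2+ FB, 44.6, 51.4 and 120.2 CPM in CD90+ FB and 43.1, 73.9 and 75.7 CPM in PDGFRα hi FB. For Ier3 and Btg2 each pericyte library lay above each FB library. Klf4, a regulator of fibroblast and epithelial differentiation, again followed another order, at 506, 466 and 361 CPM in CD81+ FB, 340.0, 264 and 181 CPM in CD90+ FB, 140.3, 219.9 and 215 CPM in Fgfr2+ FB, 20.5, 66.8 and 69.8 CPM in pericytes and 57.4, 20.4 and 47 CPM in PDGFRα hi FB (edgeR adjusted p = 0.00803).

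The colonic calls took in Fos, Fosb, Fosl1, Jun, Junb and Atf3 of the AP-1 and small Maf factors, Egr1, Btg2, Myc, Ier3, Zfp36, Nr4a1, Nr4a3, Dusp1, Dusp2, Klf4, Klf6, Rhob, Gadd45b and Sik1. Dusp2 had 405, 0 and 4 counts in the pericyte libraries, no count in CD81+ FB or Fgfr2+ FB, 6 in CD90+ FB replicate 3 and 4 in PDGFRα hi FB replicate 3, so that it rested on 1 pericyte library. Fosl1 had 145, 122 and 78 counts in CD90+ FB and 31, 3 and 77 counts in PDGFRα hi FB, and at most 6 in a library of the other colonic populations. Leaving out each of the 15 libraries gave between 17 and 21 called members, and 26 were called without the 4 libraries that stood apart, all of them small intestinal. Without pericyte replicate 2, Nr4a3 (0.0655), Myc (0.087) and Sik1 (0.0603) were not called, and Junb was not called without PDGFRα hi FB replicate 1 (0.0551) or 2 (0.0564), with the edgeR adjusted p in parentheses. With length-scaled TPM counts Myc was not called (0.0784), nor was Dusp2 with a replicate block (0.182). Of the other lists, 20 of 49 further early response genes, 3 of 15 heat shock genes and 1 of 28 MAP kinase and SRF pathway genes were called.

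Small intestinal pericytes were then set against the mean of the 3 FB populations of their tissue, each weighted equally. The members were higher in pericytes: 27 of 38 were called, all 27 in that direction, where 9.49% of all genes were called higher in pericytes and 7.09% higher in FB. The median log2 fold change, pericytes minus FB, was 2.46 over the members and −0.02 over all genes, and 36 of 38 members had a positive value. Endothelial markers went the same way, although CD31+ cells had been left out of the sorts. The 10 genes summed to 377, 279.8 and 198.7 CPM in pericytes and to between 50.33 and 105.3 CPM in the 9 FB libraries, with Tek the most abundant in pericyte replicates 1 and 3 and Pecam1 (CD31) in replicate 2. All 9 tested had a positive log2 fold change with a median of 2.86, and Tek, Tie1, Vwf and Emcn were called. Cldn5 was at 0 in pericytes, and Pecam1 overlapped, at 61.02 to 79.74 CPM against 29.83 to 65.55 CPM (edgeR adjusted p = 0.172). Of the 8 smooth muscle markers 6 were called higher in pericytes, with a median log2 fold change of 2.2 and sums of 4759, 3383 and 3608 CPM against 216.6 to 3923 CPM. The immune markers Cd79a and Itgam and the epithelial marker Krt20 were also called higher in pericytes. The immune marker Lyz2 was called higher in FB. Of the 11 immune markers tested 7 had a positive and 4 a negative log2 fold change, with a median of 0.016. Of the 5 epithelial markers tested 3 were positive and 2 negative. Cd79a was at 199.9 CPM in pericyte replicate 1, while all immune markers together summed to 27.79 CPM in replicate 2. Of the Cajal and mesothelial markers Ano1 was called higher in pericytes, at 547.3 to 1095 CPM against at most 3.115 CPM in FB. The part of all these markers in the member differences was not tested. With the pericyte values given above, Fosb was at 9.85 to 354 (median 61.9) CPM over the 9 FB libraries (log2 fold change 4.59, SE 0.422, edgeR adjusted p = 2.71e-09). Fos was at 8.38 to 249 (median 30.8) CPM in FB, and the lowest pericyte library lay just above the highest FB library (log2 fold change 3.80, SE 0.381, edgeR adjusted p = 1.37e-08). Jun was at 47.4 to 456 (median 106) CPM in FB (log2 fold change 3.302, SE 0.295, edgeR adjusted p = 1.57e-09). Atf3 overlapped, at 105, 163 and 36.7 CPM against 0.677 to 56.4 (median 7.27) CPM (log2 fold change 3.79, SE 0.575, edgeR adjusted p = 1.57e-05), as did Junb, at 68.1, 364 and 94.4 CPM against 4.06 to 80.5 (median 17.2) CPM (log2 fold change 2.90, SE 0.489, edgeR adjusted p = 6.93e-05). Jund was at 16.8, 168 and 83.4 CPM against 0.419 to 52.2 (median 33.9) CPM, with pericyte replicate 1 inside the FB range (log2 fold change 2.14, SE 0.583, edgeR adjusted p = 0.00954). Fosl1 had 0, 124 and 35 counts in pericytes and at most 14 in an FB library, its call resting on pericyte replicates 2 and 3.

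Egr1 was higher in pericytes on average, although CD34+ FB, with the values given above, overlapped with them (log2 fold change 2.40, SE 0.267, edgeR adjusted p = 9.13e-08). Egr3 had 0, 188 and 3 counts in pericytes and at most 7 in an FB library. Myc stood at 274, 254 and 231 CPM against 1.04 to 38.5 (median 24.4) CPM, with pericyte libraries close together and far above (log2 fold change 4.097, SE 0.484, edgeR adjusted p = 2.59e-07). Btg2 was at 137, 593 and 237 CPM against 14.5 to 176 (median 85.5) CPM (log2 fold change 2.27, SE 0.362, edgeR adjusted p = 3.16e-05). Csrnp1, a nuclear factor, was at 0, 89.3 and 79 CPM against 0.692 to 22.8 (median 6.28) CPM, with no count in pericyte replicate 1 (log2 fold change 3.42, SE 0.793, edgeR adjusted p = 0.00258). Ier5, a cofactor of heat shock factor, was at 646, 98.3 and 43.4 CPM against 3.12 to 57.9 (median 37.2) CPM, replicate 1 being far above the 2 others (log2 fold change 3.05, SE 0.665, edgeR adjusted p = 0.00142). Among the feedback genes, Ier3 was at 1.04 to 24.1 (median 6.16) CPM in FB, without overlap (log2 fold change 4.38, SE 0.436, edgeR adjusted p = 1.21e-08). Zfp36 and Nfkbiz were higher on average and overlapped with CD34+ FB, with a log2 fold change of 2.75 and 3.08 (edgeR adjusted p = 1.5e-06 and 0.000669). Nfkbiz was at 17, 169 and 272 CPM against 0.42 to 116 (median 19.8) CPM, lowest in pericyte replicate 1. Socs3 was at 286, 154 and 61.4 CPM against 7.95 to 122 (median 41.5) CPM (log2 fold change 1.87, SE 0.551, edgeR adjusted p = 0.0163).

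Nr4a1 was at 56.7, 269 and 244 CPM in pericytes against 1.81 to 51 (median 12.8) CPM in FB, without overlap (log2 fold change 3.95, SE 0.502, edgeR adjusted p = 9.25e-07). Nr4a2 was at 2.41, 4.55 and 67.8 CPM against 1.5 to 12.5 (median 8.78) CPM, and its call rested on pericyte replicate 3, without which the log2 fold change was −0.93 (edgeR adjusted p = 0.411). Of the phosphatases, Dusp1 was above all FB libraries in each pericyte library (log2 fold change 2.66, SE 0.372, edgeR adjusted p = 4.65e-06). Dusp6 was at 338, 71.1 and 43.8 CPM against 9.59 to 86.7 (median 18.6) CPM, with replicate 1 highest (log2 fold change 2.51, SE 0.691, edgeR adjusted p = 0.0105). Dusp2 had 1, 29 and 0 counts in pericytes and none in FB, so that its call rested on pericyte replicate 2, and DESeq2 called it in none of the 9 comparisons. All 5 kinase, stress and GTPase genes were called. Gadd45b was at 1.26 to 29 (median 15.7) CPM in FB (log2 fold change 4.29, SE 0.476, edgeR adjusted p = 8.86e-08). Trib1 was at 1903, 668 and 543 CPM against 5.87 to 264 (median 68.4) CPM (log2 fold change 3.82, SE 0.476, edgeR adjusted p = 6.75e-07), and Rhob at 458, 664 and 459 CPM against 32.2 to 210.4 (median 144) CPM (log2 fold change 2.05, SE 0.324, edgeR adjusted p = 2.67e-05). These 3 did not overlap between pericytes and FB, nor did Sik1, at 263, 64.6 and 114 CPM against 8.3 to 44.1 (median 30.9) CPM (log2 fold change 2.42, SE 0.443, edgeR adjusted p = 0.000195). Gadd45g was at 6.87, 49.1 and 46.6 CPM against 0.0698 to 27.8 (median 7.67) CPM, with replicate 1 inside the FB range (log2 fold change 2.17, SE 0.685, edgeR adjusted p = 0.0248). The members not called here were Fosl2, Maff, Egr2, Ier2, Nr4a3, Nfkbia, Dusp5 and the 4 KLF factors.

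Pericyte libraries decided some of these calls. Leaving out each of the 12 libraries in turn gave between 23 and 29 called members, DESeq2 called 27, and edgeR called 27 without the 4 libraries that stood apart, of which 24 were the same and Ier5 (0.438), Dusp6 (0.326) and Socs3 (0.327) were lost. Without pericyte replicate 2, Jund (0.181), Egr3 (0.272) and Gadd45g (0.111) were not called, and Btg2 fell under the fold threshold with a log2 fold change of 1.49. Without pericyte replicate 1, the library with the B cell transcript, Ier5 (0.322), Dusp6 (0.403) and Socs3 (0.215) were not called. Gadd45g also lost its call without pericyte replicate 3 (0.0853) or CD34+ FB replicate 2 (0.0513). Nr4a2, whose adjusted p was 0.0482, lost it without CD34+ FB replicates 1, 2 or 3 (0.0727, 0.0797 and 0.0683), PDGFRα hi FB replicates 1 or 3 (0.0612 and 0.0777) or Fgfr2+ FB replicates 1 or 2 (0.0793 and 0.0765). In a fit of only these 12 libraries Jund (0.0519), Nr4a2 (0.138) and Gadd45g (0.0828) were not called. With a replicate block Nr4a2 was not called (0.192). Values in parentheses are the edgeR adjusted p. Of 49 further early response genes, 17 were called higher in pericytes, the 4 with the largest change being Hbegf, Arc, Dusp4 and Plk3, and 3 higher in FB, Ptgs2, Dusp14 and Thbs1. Of the 15 heat shock genes, Hspb1, Hspa1b and Hspa1a were called higher in pericytes and Hspb8 higher in FB. The heat shock sum was 3933, 3096 and 3332 CPM in pericytes, where the 9 FB libraries lay between 1893 and 4421 CPM.

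In the colon the same comparison, with 4 FB populations, called 16 of 38 members, all 16 higher in pericytes, where 9.31% of all genes were called higher in pericytes and 6.72% higher in FB. The median log2 fold change was 1.31 over the members and 0.01 over all genes, and 34 members had a positive value. The endothelial markers summed to 109.2, 127.8 and 111.7 CPM in pericytes, inside the range of 58.42 to 390.5 CPM over the FB libraries, and of the 9 tested Tie1, Vwf and Lyve1 were called higher in pericytes and Tek higher in FB. Of the 8 smooth muscle markers 7 were called higher in pericytes, with a median log2 fold change of 4.75 and sums of 10860, 11880 and 11990 CPM, with Myh11 the most abundant, against 106.2 to 2509 CPM. Of the epithelial markers Cdh1 and Muc2 and of the immune markers Lyz2 and Csf1r, and also Ano1, were called higher in pericytes. So was 1 of the 3 glial and neuronal markers tested. Of the 11 immune markers tested 6 had a positive and 5 a negative log2 fold change, with a median of 0.24. Of the 5 epithelial markers tested 4 were positive and 1 negative. Pericyte replicate 2, without which 13 members were called, held 153.5 CPM of immune markers, with Lyz2 the most abundant, and 113.5 CPM of epithelial markers, with Muc2 the most abundant, against 28.94 and 41.49 CPM and 23.69 and 26.59 CPM in replicates 1 and 3. Its glial and neuronal markers summed to 34.32 CPM, against 7.465 and 10.38 CPM in replicates 1 and 3. The part of these markers was not tested. The 3 NR4A receptors were all called. Nr4a3 was at 130.5, 166 and 103 CPM in pericytes and at 2.66 to 63.2 (median 17) CPM over the 12 FB libraries (log2 fold change 2.78, SE 0.561, edgeR adjusted p = 0.00059). Nr4a1 was at 341, 402 and 424 CPM against 21.9 to 296 (median 56.2) CPM (log2 fold change 2.55, SE 0.462, edgeR adjusted p = 0.000155), and Nr4a2 at 132, 109 and 150.0 CPM against 3.44 to 49.3 (median 19.8) CPM (log2 fold change 2.51, SE 0.623, edgeR adjusted p = 0.00438). All pericyte libraries exceeded all FB libraries for the 3 receptors. Of the AP-1 and small Maf factors, Fosb did so too, at 1925, 1776 and 1652 CPM against 161 to 1109 (median 347) CPM (log2 fold change 2.23, SE 0.392, edgeR adjusted p = 0.000105). Fos, at 580.0, 801 and 778 CPM against 52.8 to 678 (median 181) CPM (log2 fold change 1.79, SE 0.364, edgeR adjusted p = 0.000635), Atf3, at 190.4, 361 and 266 CPM against 0.894 to 195 (median 47.4) CPM (log2 fold change 2.69, SE 0.527, edgeR adjusted p = 0.000415), and Junb, at 207, 226 and 169 CPM against 21.3 to 186 (median 54.3) CPM (log2 fold change 1.70, SE 0.47, edgeR adjusted p = 0.0105), overlapped. The high end of the FB range in these 3 was CD81+ FB. Jun was at 719, 657 and 587 CPM against 156 to 881 (median 383) CPM, inside the FB range, and was not called (edgeR adjusted p = 0.0917).

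Ier3 was at 154, 153 and 248 CPM in colonic pericytes against 12.2 to 71.8 (median 27.8) CPM in FB (log2 fold change 2.65, SE 0.4, edgeR adjusted p = 1.16e-05), Btg2 at 264, 569.8 and 448 CPM against 43.1 to 206 (median 101) CPM (log2 fold change 2.00, SE 0.342, edgeR adjusted p = 7.2e-05) and Myc at 126, 233 and 148 CPM against 21.2 to 106 (median 36.3) CPM (log2 fold change 1.95, SE 0.457, edgeR adjusted p = 0.00264), none of them with overlap. Nfkbiz was at 136, 142 and 300.0 CPM against 14.2 to 149 (median 34.4) CPM and overlapped (log2 fold change 2.08, SE 0.587, edgeR adjusted p = 0.0119). Gadd45g was at 149, 397 and 167 CPM against 9.52 to 143 (median 59.4) CPM, with replicate 2 far above the 2 other pericyte libraries (log2 fold change 1.93, SE 0.638, edgeR adjusted p = 0.0329). Gadd45b, at 106, 126 and 93.4 CPM against 1.92 to 190.5 (median 16.3) CPM (log2 fold change 2.47, SE 0.44, edgeR adjusted p = 0.000129), and Sik1, at 84.4, 261 and 110.2 CPM against 17.7 to 89.7 (median 38.2) CPM (log2 fold change 2.04, SE 0.419, edgeR adjusted p = 0.000678), overlapped with CD81+ FB. Dusp2 had 405, 0 and 4 counts in pericytes and at most 6 in an FB library, and Dusp5 had 81, 1 and 255 counts in pericytes and at most 21 in an FB library other than CD81+ FB replicate 1, which had 149. Egr1 passed the adjusted p with a log2 fold change under the threshold (log2 fold change 1.29, SE 0.262, edgeR adjusted p = 0.000623), as did Fosl2, Zfp36 and Rhob. Dusp1 was at 731, 1119 and 1100 CPM against 197 to 2035 (median 386) CPM, within the FB range (edgeR adjusted p = 0.109). Leaving out each of the 15 libraries gave between 13 and 18 called members, and 19 were called without the 4 libraries that stood apart. DESeq2 called 17, of which 15 were higher in pericytes and 2 higher in FB. Without pericyte replicate 2, Junb (0.0519), Gadd45g (0.272) and Sik1 (0.0535) were not called, Nfkbiz was not called without pericyte replicate 3 (0.115), and Dusp5 not without pericyte replicate 1 (0.05) or 3 (0.182) or with a replicate block (0.0592), with the edgeR adjusted p in parentheses. Of 49 further early response genes, 13 were called higher in pericytes, led by Dusp4, Hbegf, Id1 and Arc, and 4 higher in FB, Il6, Ptgs2, Dusp14 and Zfp36l2. Of 15 heat shock genes 1 was called, with the higher level in pericytes. Whether pericytes differed from FB by more in 1 tissue than in the other was not tested.

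The last comparison set PDGFRα hi FB of both tissues against Fgfr2+ FB of both tissues, with the tissues weighted equally. The median log2 fold change, PDGFRα hi FB minus Fgfr2+ FB, was −0.03 over the members and 0.00 over all genes, with 18 positive and 20 negative. It averages over tissues, and the member sum was 2878 CPM in PDGFRα hi FB against 9136 CPM in Fgfr2+ FB of the colon, and 2116 against 1651 CPM in the small intestine, where the libraries overlapped. Atf3 was the member called, with the higher level in Fgfr2+ FB, where 1.67% of all genes were called in that direction and 1.34% in the other. Its level in PDGFRα hi FB was 0.804, 0.677 and 7.7 CPM for the small intestine and 6.99, 0.894 and 12.4 CPM for the colon, and it was at 1.82, 3.88 and 7.27 CPM and 50.3, 124 and 79.6 CPM in the Fgfr2+ FB of these tissues. The colonic groups were apart and the small intestinal ones overlapped (log2 fold change −2.05, SE 0.58, edgeR adjusted p = 0.0416). Jun, Egr1 and Klf6 passed the adjusted p with a log2 fold change of −1.12, −1.03 and −0.91, under the fold threshold (edgeR adjusted p = 0.0187, 0.0158 and 0.0359). The call of Atf3 was lost, with edgeR adjusted p values of 0.0675, 0.112, 0.112 and 0.0644, without small intestinal Fgfr2+ FB replicates 2 and 3 and colonic Fgfr2+ FB replicates 2 and 3. It was lost as well, at 0.123, 0.117, 0.0904 and 0.0985, without small intestinal PDGFRα hi FB replicates 1 and 2 and colonic PDGFRα hi FB replicates 1 and 2. Each of these omissions left 0 called members, with 11 to 16 at an unadjusted p below 0.05. The count was also 0 in a fit of only these 12 libraries (13 at an unadjusted p below 0.05) and with length-scaled TPM counts (12), it was 1 with DESeq2, and it was 3 without the 4 libraries that stood apart. The edgeR adjusted p of Atf3 was 0.0882 in the fit of the 12 libraries and 0.476 with length-scaled TPM counts. Of 8 smooth muscle markers 4 were called, 3 of them higher in PDGFRα hi FB, of 8 pericyte markers 4, with 2 in each direction, and of 6 markers of CD34+ FB 4, all higher in Fgfr2+ FB like Atf3. The part of these lists was not tested. Of 49 further early response genes, Spry4, Bhlhe40 and Plk2 were called higher in PDGFRα hi FB and Ccn2 and Tnfaip3 higher in Fgfr2+ FB.

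Libraries of 1 population also differed from each other in the members as a group. The median deviation of the members from the population mean, on the log2 scale, was −0.56 in colonic Fgfr2+ FB replicate 1, −0.61 in small intestinal pericyte replicate 1 and 0.56 in small intestinal pericyte replicate 2, where the median over all genes was −0.06, −0.22 and 0.00. After subtracting population means, the Pearson correlation between members over the 30 libraries had a median of 0.101 across pairs, against 0.0131 for all genes tested. The libraries share depth and normalization, and the values are a description.

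Egr2, Klf2, Klf10 and Nfkbia were called by edgeR in none of the 9 comparisons.

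The members were also compared in the 250 bases before the transcription start, from RefSeq promoters on GRCm38.p6. A window was at hand for 29 of the 38 members, and Fosl1, Egr1, Egr3, Ier2, Klf10, Myc, Sik1, Trib1 and Nfkbiz had none. Motifs were searched on both strands, and a gene with several starts counted once. The cyclic AMP response element (CRE) core TGACG, which lies within the full CRE, was found in 15 of 29 members and in 19.8% of 27025 genes. It was in 7 of the 13 members with a window that were called between tissues in Fgfr2+ FB and in 8 of the 16 others. The full CRE TGACGTCA was in Btg2, Dusp1 and Maff, and in 1.77% of genes. The EGR motif GCGGGGGCG was in 8 of 29 members (2.93% of genes), the GC box GGGCGG, which overlaps with it in part, in 25 (35.4%), the TATA box TATAAA in 4 (14.3%), and the AP-1 motif TGAGTCA in 1, Csrnp1 (5.16%). The SRF motif CArG box was in 3, Egr2, Dusp5 and Zfp36 (1.62% of genes), and the NF-κB motif in 7 (8.23%). A match describes the sequence and does not show that a factor binds there. The windows of Fos, Dusp1 and Btg2 are printed as examples of members that were called between tissues in Fgfr2+ FB in each omission and hold the CRE core. They lie directly upstream of the annotated start, at chr12:85473640-85473889 on the plus strand and at chr17:26508473-26508722 and chr1:134079156-134079405 on the minus strand, and read from 5′ to 3′ on the gene's strand, with the CRE or its core in capitals where it stands on that strand.
Fos: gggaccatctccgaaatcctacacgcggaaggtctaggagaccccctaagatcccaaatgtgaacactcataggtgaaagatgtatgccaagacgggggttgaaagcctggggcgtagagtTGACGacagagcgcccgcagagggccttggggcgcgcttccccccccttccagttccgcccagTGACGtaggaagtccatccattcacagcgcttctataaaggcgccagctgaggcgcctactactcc
Dusp1: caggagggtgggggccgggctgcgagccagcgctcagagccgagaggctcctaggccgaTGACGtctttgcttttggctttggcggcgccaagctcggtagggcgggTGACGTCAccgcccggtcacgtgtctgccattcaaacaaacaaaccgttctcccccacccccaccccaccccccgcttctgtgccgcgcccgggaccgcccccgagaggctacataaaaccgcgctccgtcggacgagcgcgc
Btg2: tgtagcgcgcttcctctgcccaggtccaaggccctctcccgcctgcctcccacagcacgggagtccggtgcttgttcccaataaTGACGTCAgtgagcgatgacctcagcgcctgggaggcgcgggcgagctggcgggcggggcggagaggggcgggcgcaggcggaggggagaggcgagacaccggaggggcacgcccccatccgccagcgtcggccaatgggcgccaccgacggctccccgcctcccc
In Fos the core occurs at 2 positions, without the full CRE. Dusp1 and Btg2 hold 1 full CRE each, and their windows have 3 and 2 matches to the core, counting both strands.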

How the data were processed

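Bulk RNA-seq was available for 30 libraries of stromal cells sorted from mouse small intestine and colon, 3 for each of 10 populations. According to the authors, reads were trimmed with Trim Galore 0.4.0, checked with FastQC 0.11.2 and quantified with kallisto 0.42.5, and the deposited files give an estimated count and a TPM value, a transcript level scaled for length and library total, for each of 98492 transcripts. Of these, 97116 were matched to GENCODE M21 genes on GRCm38, and the estimated counts were summed to 32316 gene symbols and rounded. The sums held between 97.81% and 99.19% of a library's counts, and libraries held between 2245052 and 19096945 counts. A gene was tested where 3 or more libraries had 6 counts or more of it, which 17505 genes did.

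Counts were normalized by TMM and fitted in R 4.3.3 with edgeR 4.0.16 (quasi-likelihood, limma 3.58.1), in 1 model with a mean per population, and p values were adjusted by Benjamini-Hochberg over all tested genes. Contrasts were called where the log2 fold change exceeded 1.5 in either direction with an adjusted p below 0.05, and F tests by the adjusted p alone. Populations share mice and experiments, but which libraries share them is not stated, so the model has no term for mice and a p value measures the spread between samples. The SE of a log2 fold change was derived from the test, as its absolute value divided by the square root of the F statistic. CPM per kb divides the CPM of each transcript's estimated counts by its effective length in kb. The code was tested on simulated data. Alternatives were DESeq2 1.42.0, RLE normalization, no filter and a stricter filter on low counts, a replicate block, counts from length-scaled TPM, a fit of only the libraries compared, and the omission of each library in turn. A fit without the 4 libraries that stood apart was chosen after seeing the data.

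Values per library are given for members called in a contrast, for the 6 members with the smallest adjusted p among the populations of each tissue and for the 3 with the highest level per length, and others were added after their values were seen. From other gene lists at most 4 called genes per list, contrast and direction were named. A withheld item is not reported here. The members and the lists were chosen with earlier results of these data known.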

Additional observations from a re-analysis of the deposited data

Results flagged for a closer look

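The tissue difference of 11 members differed between pericytes, Fgfr2+ FB and PDGFRα hi FB by an interaction test, which is why they are listed here. Of all genes, 2.67% were called in the same test. The edgeR adjusted p was 0.000885 for Dusp1, 0.00141 for Jun, 0.00526 for Fos, 0.00561 for Egr1, 0.0072 for Myc and 0.00734 for Btg2. It was 0.00829 for Gadd45b, 0.0105 for Zfp36, 0.0123 for Fosb, 0.0195 for Fosl1 and 0.0277 for Trib1. Trib1 lost its call under 7 of 26 alternatives and Fosl1 under 3. Fosb and Zfp36 lost theirs in a fit of only the populations compared. The counts of Fosl1 are uncertain, and the gates of both FB subsets differed between the tissues.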

How the results depend on the processing

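The counts of called members kept within 1.5 times of the reported ones under all alternatives for Fgfr2+ FB between tissues (12 to 16 in the omissions of 1 library), the interaction (9 to 13), the small intestinal populations (25 to 30), the colonic populations (17 to 21), and pericytes against FB in the small intestine (23 to 29) and in the colon (13 to 18). For pericytes between tissues, 3 members were called, and the count was 6 with DESeq2 (3 higher in each tissue, against 2 and 1), 5 with no filter on low counts, 0 in a fit of only these libraries, 1 without the 4 libraries that stood apart, a setting chosen after seeing the data, and 0 to 5 in the omissions. For PDGFRα hi FB between tissues, 1 was called, and the count was 2 with DESeq2, with no filter, in a fit of only these libraries and without the libraries that stood apart, and 0 to 1 in the omissions. For PDGFRα hi FB against Fgfr2+ FB, 1 was called, and the count was 0 with length-scaled TPM counts and in a fit of only these libraries, 3 without the libraries that stood apart, and 0 to 1 in the omissions. For colonic pericytes against FB, DESeq2 called 15 members higher in pericytes and 2 higher in FB. The cause was not tested.

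Over the 124 results for single members and 2600 values under alternatives, 2437 kept direction and call, 162 lost the call and 1 reversed. The omissions of 1 library put Nr4a2, for small intestinal pericytes against FB, between a log2 fold change of 2.415 without small intestinal pericyte replicate 1 and the reversed value, −0.93, without replicate 3 (edgeR adjusted p = 0.411), and the cause was not tested. With the replicate number as a block, 1 member was called between tissues in pericytes, 15 in Fgfr2+ FB and 1 in PDGFRα hi FB, 11 in the interaction, 27 and 20 among the populations of the small intestine and colon, 27 and 15 between pericytes and FB, and 1 between PDGFRα hi FB and Fgfr2+ FB. The replicate numbers did not pair the libraries, since the correlation of deviations between populations lay between −0.0655 and 0.116 over 45 pairs of populations and exceeded 0.1 in 1. Where an omission left 2 libraries in a group, the spread was pooled over all populations. Depth limits Fosl1, Egr3, Dusp2 and Dusp5, which had few counts or none in most populations.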
